A study of Mus musculus with 35 samples.

Results

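Integrins and the adaptor and kinase genes of focal adhesions were followed in 35 single MEFs (mouse embryonic fibroblasts, the connective tissue cells that grow out of a dissociated embryo), 21 with micronuclei and 14 without. The 39 genes were chosen by name from the 19085 genes of the count table: 24 rows whose symbol is that of an integrin α or β chain, and 15 adaptors and kinases, namely Vcl, Tln1, Tln2, Zyx, Pxn, Ptk2, Ilk, Parva, Lims1, Fermt2, Tns1, Bcar1, Src, Vasp and Tgfb1i1. One of the 24 rows, Itgbl1, is an integrin-like gene that takes the same name pattern, and 3 rows of integrin-binding proteins (Itgb1bp1, Itgb1bp2 and Itgb3bp) were kept out. All cells were of strain C57Bl/6J, were grown at 3% oxygen and had received 1 Gy of ionising radiation 48 h before capture. At 32 h they were re-plated on dishes with a membrane base for the laser, and the compared groups include no unirradiated cells. PicoGreen in the medium stained the DNA, laser microdissection picked the single cells, and Smart-seq2 turned their polyadenylated RNA into libraries that cover whole transcripts and carry no molecular identifiers. Micronuclei are small nucleus-like bodies that form around chromosomes or fragments left behind at division. The labels tie no library to an embryo or a culture, and cells are not replicates, so either group stands as 1 sample: no p-value is given, and the values describe these cells.

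Integrins are pairs of an α and a β chain that span the plasma membrane, bind extracellular matrix outside the cell and, through adaptor proteins, the actin cytoskeleton inside it. Talin and kindlin bind the β chain tail and switch the receptor on. The ILK, PINCH and parvin complex, vinculin, zyxin, VASP and tensin couple it to actin, and focal adhesion kinase, Src, paxillin and p130Cas pass on its signals. Fibroblasts spread on and pull at collagen and fibronectin through such adhesions, with the β1 chain as the shared partner of most of their α chains.

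Reads counted on genes numbered 57514 to 1794113 in cells with micronuclei (median 281800) and 56766 to 2023111 in cells without (median 736715), so the depth was lower with micronuclei. Over each group they summed to 11084425 with micronuclei and 11612303 without. Levels are given as CPM, reads after every library is brought to the same total, per cell or over a group's summed reads, and a difference as the log2 ratio of CPM + 1 with micronuclei over without. Intervals in parentheses are 95% intervals, exact Poisson for summed CPM and exact Clopper-Pearson for shares of cells, and cover counting error only. The 11 listed fibroblast markers summed to 4399 to 14723 CPM per cell with micronuclei (median 8409) and 5412 to 17541 CPM without (median 9122). Col1a1, Vim and S100a4 reached 5 reads in all 21 cells with micronuclei and all 14 without. Other markers of the list were sparse. Lum reached 5 reads in 0 of 21 cells with micronuclei and 1 of 14 without. For Pdgfra these counts were 7 and 1, for Pdgfrb 9 and 4, and for Dcn 10 and 7. Markers of endothelial, skeletal muscle and epithelial cells summed to at most 327.0, 260.4 and 408.5 CPM in any cell, and those of platelets to at most 772.8 CPM, nearly all from Ppbp in micronucleated cell 9.

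Micronucleated cells 10 and 6 went against the fibroblast label in part. Cell 10 (611652 reads) held 17100 CPM of macrophage markers, with 14 of the 15 listed markers present in the table at 5 reads or more and Lyz2, the lysozyme of macrophages, at 13946 CPM, beside fibroblast collagen transcripts. No other cell exceeded 1452 CPM of macrophage markers, and cells without micronuclei had at most 64.1 CPM. Cell 6 (220313 reads on only 2391 genes) had the highest level of the smooth muscle actin gene Acta2 of all cells (16513 CPM), no read of Col1a2, Fn1 or Thy1, and 1452 CPM of the macrophage receptor gene Csf1r with no other macrophage marker at 5 reads. Other fibroblast markers were present in cell 6. Its Vim stood at 3068 CPM (median of micronucleated cells 2297) and its Col1a1 at 281.4 CPM (median 1679). Leaving out both cells moved no log2 ratio of a measured integrin or adaptor by more than 0.12 (Parva) and turned 0 of 24 signs. The part of those cells' identity in single values is given where it shows.

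All 39 genes had reads, but only 24 were measured, meaning that they reached 5 CPM over all cells and 5 reads in at least 5 cells: all 15 adaptors and kinases and 9 of the 24 integrin rows. In summed reads 13 of the 24 were higher with micronuclei and 11 lower. Of all 8390 measured genes, 56% were higher and 44% lower. Of the 9 integrins 3 were higher and 6 lower, with a median log2 ratio of −0.53. Of the 15 adaptors and kinases 10 were higher and 5 lower, with a median of 0.39. Over all measured genes the median was 0.15. With every cell given equal weight, as the ratio of mean CPM per cell, these medians were −0.72 for integrins, 0.21 for adaptors and kinases and 0.05 for all genes. At least 2-fold higher were Vasp and Ilk, 2 of 24 (all genes 22.9%), and at least 2-fold lower were Itga6, Itga7, Ptk2 and Tln2, 4 of 24 (all genes 14.7%). Over summed reads, equal weights and the omission of each of the 35 cells in turn, 11 members were always higher (all genes 33.5%) and 7 always lower (all genes 20.1%). The integrin median does not hold for every choice of cells: it was 0.11 without cell 1 of the group without micronuclei, 0.09 without 6 cells of low quality that include it, and 0.17 with all 24 integrin rows, rare ones included, while the adaptor median stayed above 0 in all of these. TMM scaling, which sets typical genes equal, brought the median over all genes to 0.01, and ratios close to 0.15 are therefore close to the typical gene.

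**Figure D1:**
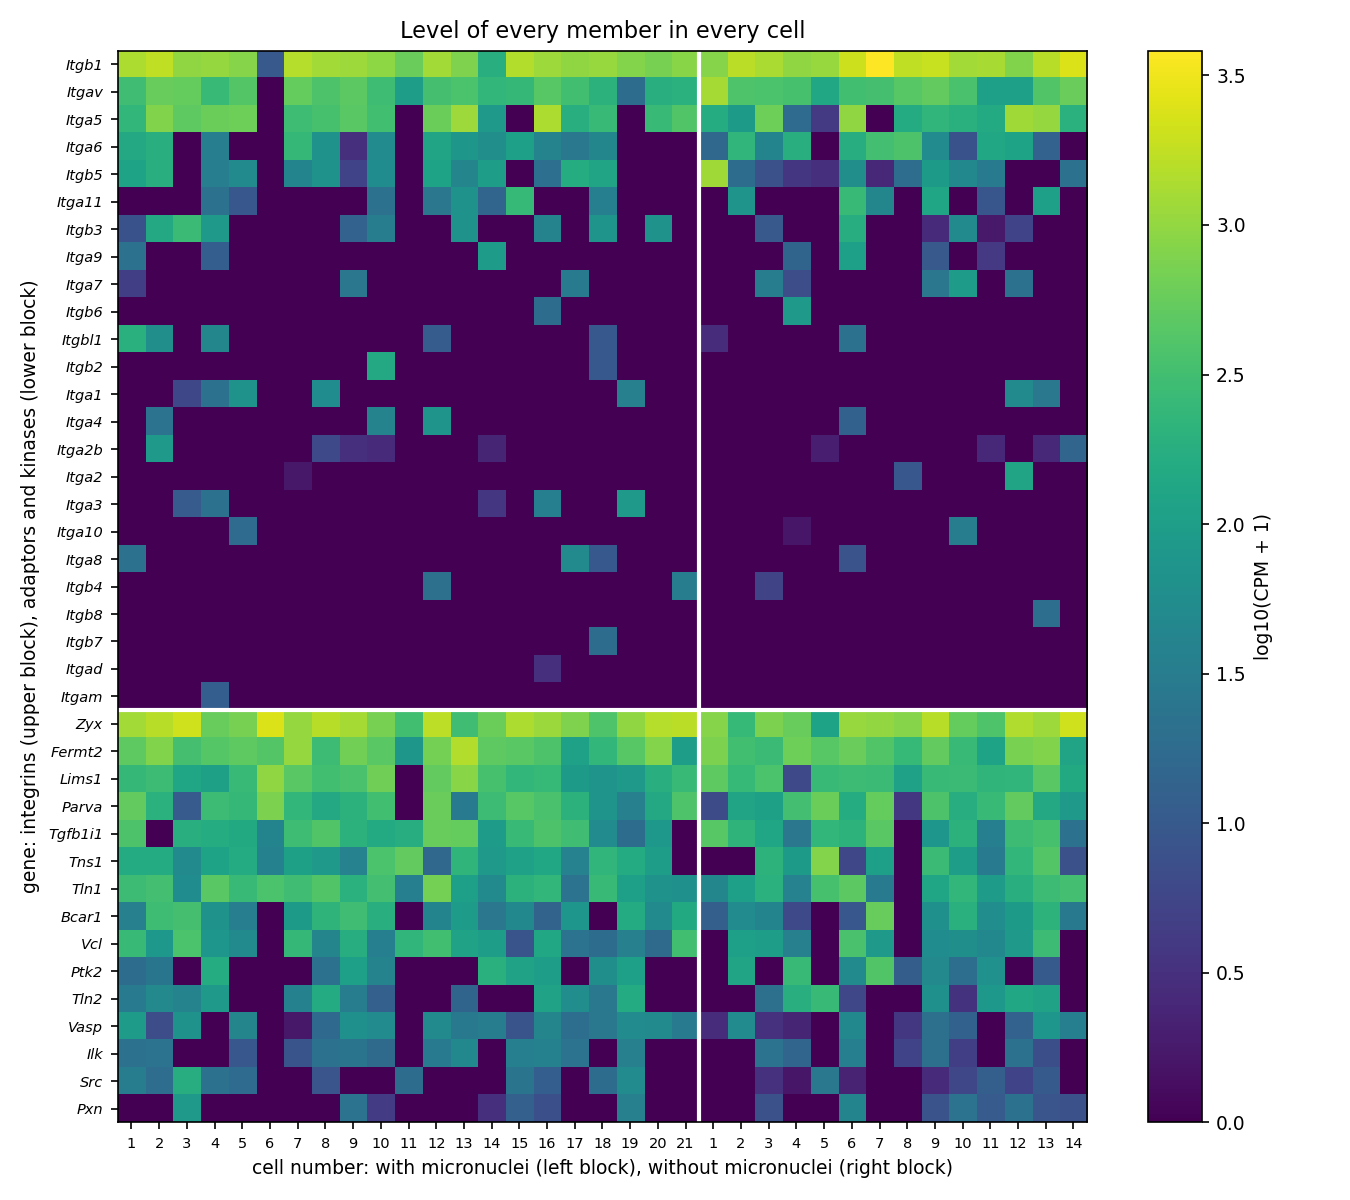
Level of all 39 genes in all 35 cells, as log10 of CPM + 1 in colour, with integrins in the upper block and adaptors and kinases in the lower block; columns are cells, with micronuclei in the left block (n = 21) and without in the right block (n = 14). Itgb1 and Itgav fill the top rows in nearly every cell, and the 15 lowest integrin rows are mostly empty. Micronucleated cell 6 has an almost empty integrin column, with 7 of its 15 adaptor rows at 5 reads or more.

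Itgb1, the β1 chain (chromosome 8, 128685654 to 128733200, plus strand, in the GENCODE annotation of GRCm38), was lower in micronucleated cells. It ranged from 9.08 to 1756 CPM in cells with micronuclei (median 980.3, SD 410.5, n = 21), against 789.3 to 3823 CPM in cells without (median 1454, SD 789.9, n = 14). The groups overlapped, but 18 of 21 micronucleated cells lay below the median of the others, 5 lay below the lowest of them, and 4 cells without micronuclei lay above the highest micronucleated cell. Over summed reads it stood at 930.1 CPM (912.3 to 948.3) with micronuclei and 1804 CPM (1780 to 1829) without, a log2 ratio of −0.96. With equal weights the log2 ratio was −0.72, and it stayed between −1.10 and −0.57 whichever cell was left out. The value nearest 0 came without cell 7 of the group without micronuclei, which held 24.7% of all Itgb1 reads. At least 5 reads were found in 20 of 21 micronucleated cells (95.2%, 76.2 to 99.9) and in 14 of 14 others (100%, 76.8 to 100), the exception being cell 6 with 2 reads. The difference between the medians was larger than the SD of the micronucleated cells and smaller than that of the others.

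Itgb5 and Itgb3 are the β chains that pair with αv in receptors for vitronectin. Itgb5 reached 0 to 176.6 CPM in cells with micronuclei (median 40.8) and 0 to 1179 CPM in cells without (median 17.97). One library sets its direction: cell 1 without micronuclei held 44.9% of the reads, and the log2 ratio of −0.53 became 1.33 without it, in accord with the medians. Itgb3 reached 274.9 CPM with micronuclei and 170.8 CPM without, with a median of 0 in both groups and 5 or more reads in 8 of 21 cells with micronuclei and 2 of 14 without. Its log2 ratio was 0.78 (1.13 with equal weights), and 2.44 once cell 6 of the others was omitted, so the size of its difference is not settled by these cells.

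Among the α chains Itga5, the fibronectin receptor's α5 (chromosome 15, 103344286 to 103366763, minus strand), was higher with micronuclei in summed reads. It ranged from 0 to 1392 CPM in micronucleated cells (median 317.2, SD 368.9) and from 0 to 1194 CPM in the others (median 176.0, SD 412.8). The groups overlapped over nearly the whole range, and 4 micronucleated cells and 1 other had no read of it. Its summed level was 460.4 CPM (447.8 to 473.2) with micronuclei and 249.1 CPM (240.1 to 258.4) without, a log2 ratio of 0.88. That size rests on deep cells: the log2 ratio was 0.18 with equal weights and 0.39 when micronucleated cell 13, the source of 25.9% of its reads, was omitted.

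Itgav, the αv chain of receptors for vitronectin and latent TGF-β (chromosome 2, 83724397 to 83806916, plus strand), ranged from 0 to 561.8 CPM in cells with micronuclei (median 301.6) and from 104.4 to 1266 CPM in cells without (median 366.4). Its summed levels of 342.5 CPM with micronuclei and 362.2 CPM without differed by a log2 ratio of −0.08, which was 0.03 when micronucleated cell 11 was omitted and 0.11 when cell 1 of the others was, so it has no stable direction. Itga6, the laminin-binding α6 chain, was lower with micronuclei: 0 to 245.5 CPM per cell (median 38.9), against 0 to 379.2 CPM without (median 84.4). Both groups held empty cells, 7 of 21 with micronuclei and 2 of 14 without, and only 2 cells without micronuclei lay above the highest micronucleated cell. In summed reads Itga6 stood at 77.0 CPM (72.0 to 82.4) with micronuclei and 162.6 CPM (155.3 to 170.1) without, a log2 ratio of −1.07. With equal weights it was −1.04, and it stayed between −1.63 and −0.74 over the omitted cells. At least 5 reads were found in 12 of 21 cells with micronuclei and 12 of 14 without, and in 7 of 18 with micronuclei and 8 of 13 without once each cell was thinned to 100000 reads.

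The other 3 measured α chains were sparse, with a median of 0 in both groups. Itga11, a collagen receptor chain of mesenchymal cells, stood at 21.1 CPM in summed reads with micronuclei and 40.0 CPM without, a log2 ratio of −0.89. Cell 6 without micronuclei held 31.9% of its reads, and the log2 ratio was −0.08 without that cell and −1.67 without micronucleated cell 13. Itga7, a laminin receptor chain best known from muscle, stood at 2.98 CPM with micronuclei and 10.4 CPM without, with at least 5 reads in 2 of 21 cells with micronuclei and 5 of 14 without. Its log2 ratio of −1.52 was −0.30 when cell 10 of the others was omitted and −2.60 without micronucleated cell 9. Itga9 had no usable direction: its log2 ratio of 0.38 was −2.67 without micronucleated cell 14, which held 53.2% of the reads, and 1.95 without cell 6 of the others.

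**Figure D2:**
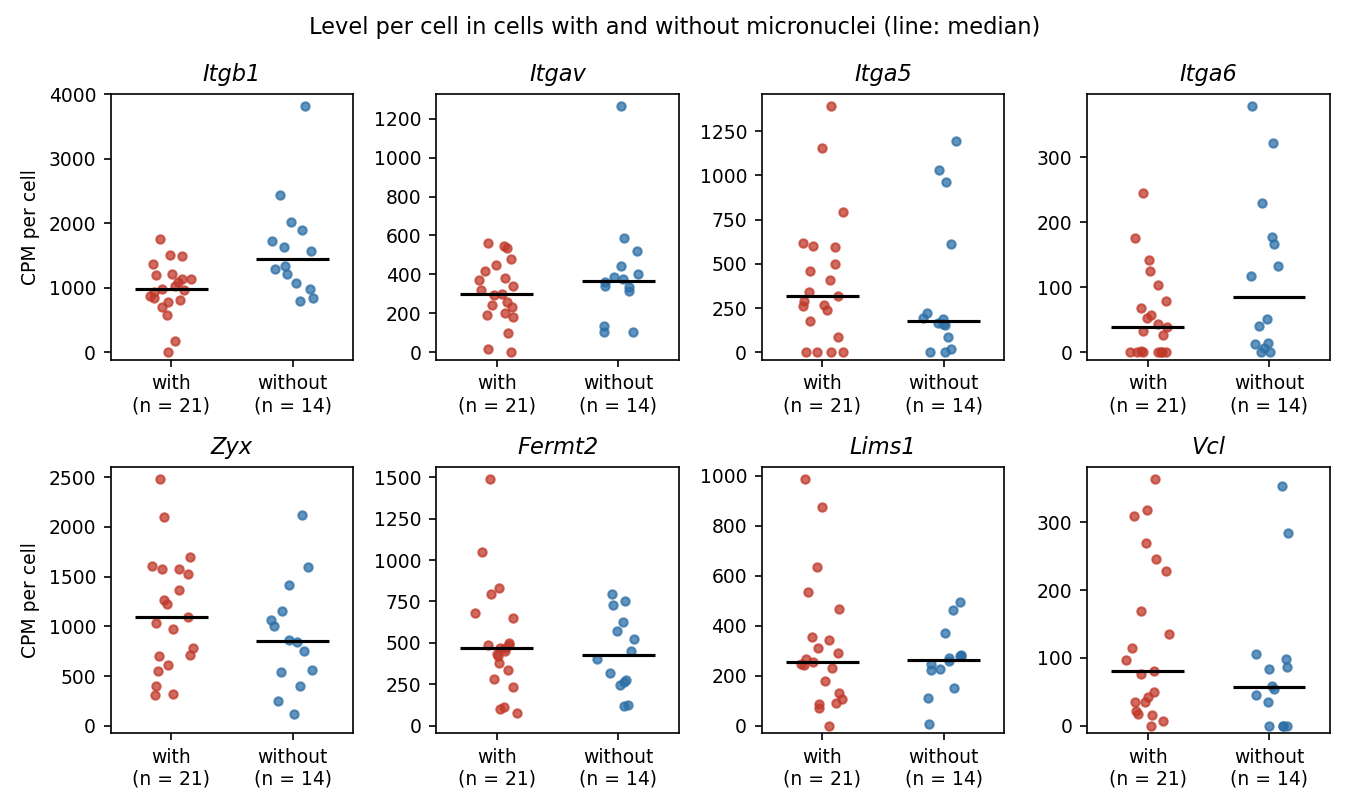
CPM per cell (linear axes, each with its own range) of 4 integrins (upper row) and 4 adaptors (lower row) in cells with micronuclei (red, left, n = 21) and without (blue, right, n = 14); each point is 1 cell and each line a median. Itgb1 has medians of 980.3 CPM with micronuclei and 1454 CPM without, while the points of the other genes overlap over most of their range.

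Transcripts of different genes were set side by side only per length, as RPKM, reads scaled both to that common total and to the length of the merged exons. Itgb1 was the most abundant of the 24 measured genes in both groups, at 227.9 RPKM with micronuclei and 442.1 RPKM without, and it was followed in both by Zyx, Fermt2, Itga5, Lims1, Tgfb1i1, Itgav, Bcar1 and Parva in this order. The α rows together came to 142.0 RPKM with micronuclei and 113.9 RPKM without, so the level of β1 transcripts was above the sum of all 15 α chains in both groups. The other 7 β rows came to 22.1 RPKM with micronuclei and 25.1 RPKM without. Among integrin reads Itgb1 took 47.4% with micronuclei and 65.6% without, and Itga5 took 23.5% with micronuclei and 9.05% without. The order of neighbours is not firm, since the level of each of these genes varied between cells by far more than the step from one gene to the next.

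The 15 unmeasured integrin rows held 668 reads in all, between 1 and 135 each, with at least 5 reads in at most 4 cells, and 11 of them had most of their reads in 1 cell. Itgb2, the β2 chain of leukocytes, is the clearest case: 89 reads fell in micronucleated cells, 88 of them in cell 10, the cell with macrophage markers, and 0 in cells without micronuclei. With the empty group set to 3 reads in sum, Itgb2 was at least 31.1-fold higher in micronucleated cells, a value that 1 cell makes. The same cell held 24 of the 59 reads of Itga4, a chain that leukocytes also use. Itgb6 had 127 of its 135 reads in cell 4 without micronuclei, Itga2b 41 of 54 in micronucleated cell 2, and Itgbl1 52 of 106 in micronucleated cell 1. Itga3, part of a laminin receptor, had 29 reads, all from 5 micronucleated cells (at least 10.1-fold higher against the same 3 reads), and Itgb8 had 0 reads in micronucleated cells and 12 in 1 cell without (at least 3.82-fold lower). Itga2 had 1 read with micronuclei and 41 without, 29 of them in cell 12, and Itga10 had 2 with micronuclei and 27 without, 26 of them in cell 10. Itga1 had 34 reads with micronuclei and 29 without, Itga8 had 20 with micronuclei and 6 without, and Itgb4 had 18 with micronuclei and 2 without, each at 5 reads in at most 4 cells. For these rows the few cells that hold the reads limit any comparison of the groups. Itgb7, with 2 reads, and Itgad and Itgam, with 1 each, were too rare at this depth for a difference to be detectable. The exons of Itga10 and Itgam overlap those of another annotated gene on the same strand (33.5% and 68.7% of their bases).

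Of the proteins that switch integrins on, both the kindlin and the main talin were higher with micronuclei in summed reads. Fermt2 (kindlin-2; chromosome 14, 45458795 to 45530118, minus strand) had reads in every cell, with 78.8 to 1491 CPM in cells with micronuclei (median 467.6, SD 331.1) and 117.8 to 793.5 CPM in cells without (median 425.3, SD 228.5). Micronucleated cells were the more scattered, 4 of them above the highest and 3 below the lowest cell of the others. Summed levels were 670.6 CPM (655.4 to 686.0) with micronuclei and 426.8 CPM (415.0 to 438.8) without, a log2 ratio of 0.65, which was 0.21 with equal weights and 0.26 without micronucleated cell 13. Tln1, the talin of non-muscle cells, had 22.4 to 682.5 CPM in cells with micronuclei (median 235.3) and 0 to 484.5 CPM in cells without (median 153.3). Its log2 ratio of 0.39 hardly depended on the weighting (0.37 with equal weights, 0.17 to 0.68 over the omitted cells), and 13 of 21 micronucleated cells lay above the median of the others. Tln2, the second talin, went the other way in summed reads, at 27.3 CPM (24.3 to 30.6) with micronuclei and 68.1 CPM (63.5 to 73.0) without, a log2 ratio of −1.29. Its medians per cell of 26.04 CPM with micronuclei and 12.5 CPM without do not follow that sum, since a few deep cells without micronuclei, cell 5 first with 265.5 CPM, carry it. The log2 ratio was −0.66 with equal weights and −0.84 without cell 5.

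The ILK, PINCH and parvin complex links the β tail to actin and is assembled from 3 members measured here. Lims1 (PINCH-1) had 0 to 985.0 CPM in cells with micronuclei (median 256.1) and 5.27 to 493.1 CPM in cells without (median 263.9). The difference lies in the upper end: 4 micronucleated cells, with cell 6 the highest, lay above every other cell, while the medians were nearly equal. Its log2 ratio was 0.80 in summed reads, 0.29 with equal weights and 0.44 without micronucleated cell 13. Its mean log2 level per cell differed by −0.01, where the median over all measured genes on that measure was 0.30. Ilk, the pseudokinase at the core of the complex, stood at 17.3 CPM (14.96 to 19.95) with micronuclei and 7.58 CPM (6.08 to 9.34) without, a log2 ratio of 1.09. It was 0.73 with equal weights and 0.57 without micronucleated cell 13. Ilk shares 76.7% of its exon bases with Taf10 and 12.9% with Rrp8, both on the opposite strand. The strand setting of the counting is not given in the sources used here. The reads counted for Ilk may therefore belong to another gene, and reads from shared bases may be uncounted. Parva (α-parvin) stood at 211.7 CPM with micronuclei and 285.0 CPM without, a log2 ratio of −0.43 that was 0.08 with equal weights, with medians per cell of 232.4 CPM with micronuclei and 165.2 CPM without. Its direction was therefore a matter of weighting, and the 3 partners did not share one.

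Of the proteins that couple the adhesion to actin, vinculin and VASP were higher with micronuclei under every weighting and with every cell omitted, as was zyxin by less. Vcl (vinculin, which talin recruits under tension; chromosome 14, 20929398 to 21033676, plus strand) had 0 to 363.3 CPM in cells with micronuclei (median 80.3, SD 116.9) and 0 to 353.7 CPM in cells without (median 56.5, SD 106.3). The ranges coincide almost wholly, and 1 micronucleated cell and 4 others had no read. Its summed levels were 148.2 CPM (141.1 to 155.6) with micronuclei and 79.0 CPM (73.9 to 84.2) without, a log2 ratio of 0.90, with 0.54 under equal weights and 0.71 to 1.34 over the omitted cells. Of its exon bases 25.5% lie opposite Ap3m1, so part of its reads may belong to that gene, or reads from these bases may be uncounted. Vasp, which extends actin filaments at adhesions, had 0 to 95.8 CPM in cells with micronuclei (median 27.7) and 0 to 75.6 CPM in cells without (median 7.33). At least 5 reads were found in 12 of 21 micronucleated cells (57.1%, 34.02 to 78.2) and 5 of 14 others (35.7%, 12.8 to 64.9), and in 6 of 18 with micronuclei and 1 of 13 without after thinning. The log2 ratio of Vasp was 1.22, 0.75 with equal weights and 0.97 to 1.78 over the omitted cells, and 16 of 21 micronucleated cells lay above the median of the others.

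Zyx (zyxin, which binds VASP and gathers on strained actin bundles; chromosome 6, 42349630 to 42360213, plus strand) was the most abundant adaptor, with 307.1 to 2483 CPM in cells with micronuclei (median 1092, SD 589.2) and 117.1 to 2121 CPM in cells without (median 851.9, SD 548.6). The difference between the medians was smaller than either SD, and 13 of 21 micronucleated cells lay above the median of the others. Its log2 ratio was 0.20 in summed reads, close to the typical gene, 0.33 with equal weights, and 0.00 without 6 cells of low quality (4 with micronuclei and 2 without, with fewer than 4000 genes or mitochondrial reads above 9%). Tgfb1i1 (Hic-5, a paxillin relative of mechanically loaded cells) had a log2 ratio of 0.41, which was 0.14 with equal weights, 0.05 without micronucleated cell 13 and −0.11 with scran scaling. Its medians per cell were 172.3 CPM with micronuclei and 201.8 CPM without, the reverse order. Tns1 (tensin-1, an actin-binding scaffold of the fibrillar adhesions) stood at 170.3 CPM with micronuclei and 160.2 CPM without, a log2 ratio of 0.09 that took the other sign when any of 7 cells was omitted (micronucleated cells 10 and 11, and cells 4, 6, 7, 8 and 11 of the others), was −0.31 without micronucleated cell 11, and was 0.78 without cell 5 of the others. It had at least 5 reads in 19 of 21 micronucleated cells and in 9 of 14 others.

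Promoter sequences are shown for the 3 of these adaptor genes in which a motif was found, Vcl, Fermt2 and Zyx. Their log2 ratios in summed reads were 0.90, 0.65 and 0.20, the last close to the typical gene. RefSeq promoters of GRCm38.p6 were on hand for 28 of the 39 genes, and the 250 bases before the transcription start were searched on both strands for the CArG box (the binding motif of serum response factor), for TGANTCA (that of AP-1) and for GGAATG (that of TEAD factors). The motif is in capitals, each stretch is written 5′ to 3′ on the gene's strand, and the lines give Vcl at chr14:20929151-20929200 (plus strand), Fermt2 at chr14:45530240-45530289 (minus strand) and Zyx at chr6:42349707-42349733 (plus strand).
Vcl, CArG box 227 bases before the start: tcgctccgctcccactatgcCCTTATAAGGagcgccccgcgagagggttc
Fermt2, CArG box 204 bases before the start: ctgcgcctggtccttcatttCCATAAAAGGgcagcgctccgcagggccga
Zyx, TGANTCA 121 bases before the start: TGAGTCAgttctccagcactcgcgggt
The Zyx match lies inside the GENCODE span of the gene, since RefSeq places the start farther in. The CArG box was in 3 of the 28 promoters (Vcl, Fermt2 and Itgb6) and, over windows of the same length, in those of 1.62% of 27025 genes. Itgb6, an unmeasured row, went the other way from Vcl and Fermt2, with 8 reads with micronuclei and 127 without, the latter all in 1 cell. TGANTCA was in 1 of the 28 (Zyx) and in 7.82% of all, and GGAATG in 3 of the 28 (Itgb1, Vcl and Itga10) and in 14.4% of all. A match describes the letters in this window and no binding was measured. Itgb1, which was lower with micronuclei, and Vcl, which was higher, both hold GGAATG.

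The kinases and signalling scaffolds of the adhesion showed no shared direction. Ptk2, focal adhesion kinase, stood at 47.5 CPM (43.6 to 51.8) in summed reads with micronuclei and 123.0 CPM (116.7 to 129.5) without, a log2 ratio of −1.35. Most of that size came from 1 library: cell 7 without micronuclei had 404.3 CPM and 41.8% of all Ptk2 reads, and without it the log2 ratio was −0.41, whereas it was −2.19 without micronucleated cell 14. The medians per cell were 17.7 CPM with micronuclei and 14.8 CPM without, and at least 5 reads were found in 11 of 21 cells with micronuclei and 9 of 14 without. Bcar1 (p130Cas, a scaffold that Src phosphorylates when stretched) had a log2 ratio of −0.37, and 1.10 without the same cell 7, which held 40.7% of its reads. With equal weights the log2 ratio was 0.17. Src stood at 8.57 CPM with micronuclei and 4.82 CPM without, a log2 ratio of 0.72 that was 1.84 with equal weights, 0.18 when micronucleated cell 3 was omitted and 1.32 when cell 5 of the others was. Pxn (paxillin) was the rarest adaptor per length, at 4.60 CPM with micronuclei and 7.15 CPM without, a log2 ratio of −0.54. With equal weights that ratio was −0.14, and it was −0.009 without cell 6 of the others, which held 24.6% of the Pxn reads. Pxn was seen at 5 reads in 2 of 21 cells with micronuclei and 5 of 14 without. After thinning these were 1 of 18 with micronuclei and 0 of 13 without. Src was seen at 5 reads in 6 of 21 cells with micronuclei and 3 of 14 without, so both genes were found in few cells.

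**Figure D3:**
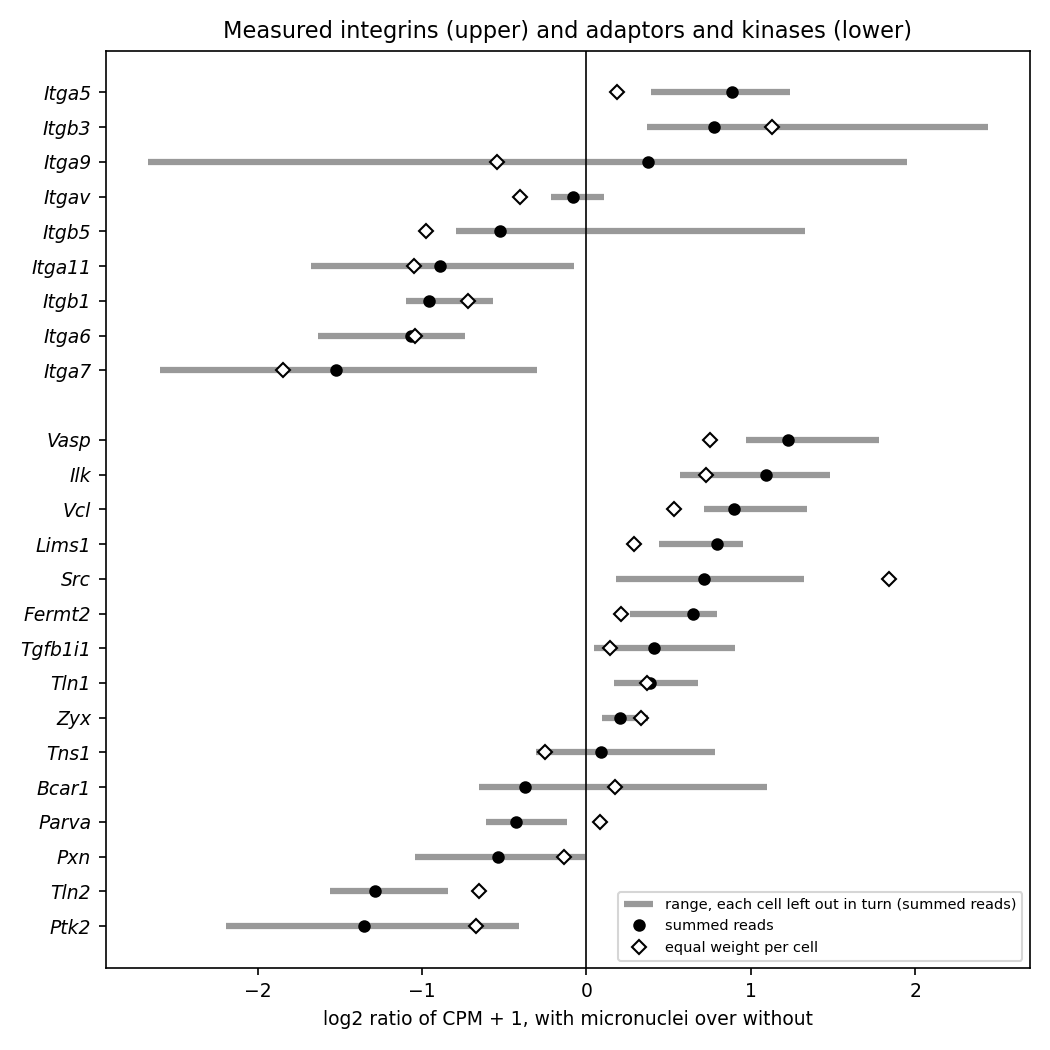
Log2 ratio of CPM + 1, with micronuclei over without, for the 9 measured integrins (upper block) and 15 adaptors and kinases (lower block): filled circles are summed reads, open diamonds equal weight per cell, and grey bars the range of the summed ratio over the omission of each cell. With all of their marks 7 genes lie below 0, among them Itgb1, Itga6, Ptk2 and Tln2. Above 0 with all marks lie 11 genes, among them Itga5, Itgb3, Vasp, Ilk, Vcl and Fermt2. The bars of Itga9, Itgav, Itgb5, Tns1 and Bcar1 cross 0.

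Integrins and adaptors were also summed within single cells. The 24 integrin rows summed to 9.08 to 3770 CPM in cells with micronuclei (median 2082, SD 862.0) and 1224 to 4527 CPM in cells without (median 2582, SD 943.1). The 15 adaptors and kinases summed to 1371 to 5171 CPM in cells with micronuclei (median 3288, SD 1025) and 1239 to 4324 CPM in cells without (median 2745, SD 989.5). Each difference alone, −500.0 CPM for integrins and 542.5 CPM for adaptors and kinases, fell short of both groups' SD, and the adaptor difference depends on the scaling. With scran size factors, scaled per cell, the integrin difference was −904.4 CPM and the adaptor difference only 34.9 CPM, while after thinning to 100000 reads they were −710.0 CPM and 685.0 CPM. The ratio of the 2 sums in a cell, a measure chosen after the values were seen, does not depend on the scaling of that cell. The integrin sum over the adaptor sum was 0.00178 to 1.27 in cells with micronuclei (median 0.585, SD 0.276) and 0.394 to 2.21 in cells without (median 1.11, SD 0.447). Of 21 micronucleated cells 20 lay below the median of the others, and 1 of 14 others, cell 5, lay below the micronucleated median. Integrin reads outnumbered adaptor reads in 1 of 21 micronucleated cells and 8 of 14 others.

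Itgb1 made up most of the difference between the group means of this ratio. Those means were 0.640 with micronuclei and 1.08 without. Itgb1 over the adaptor sum had means of 0.335 with micronuclei and 0.656 without. For the other integrins these means were 0.305 and 0.428. Without Itgb1 the other integrins summed to medians of 956.4 CPM with micronuclei and 912.0 CPM without, and over the adaptor sum to 0.275 with micronuclei and 0.370 without, with 14 of 21 micronucleated cells below the median of the others. Itgb1 alone over the adaptor sum had medians of 0.333 with micronuclei and 0.591 without, with 20 of 21 micronucleated cells below. Zyxin mattered less, as without it the ratio had medians of 0.939 with micronuclei and 1.61 without, and 18 of 21 micronucleated cells below. Micronucleated cell 6 is the extreme case, with 2 integrin reads beside 1122 adaptor reads and the second highest adaptor sum of all cells (5093 CPM). Micronucleated cell 10, with the macrophage markers, lay within its group at 1888 CPM of integrins and 3288 CPM of adaptors and kinases. Integrin rows at 5 reads or more numbered 5 per cell in the median with micronuclei and 6 without, and after thinning 4 with micronuclei and 4 without. The part of depth, which was lower with micronuclei, in these per-cell values was examined only by the thinned values given above.

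**Figure D4:**
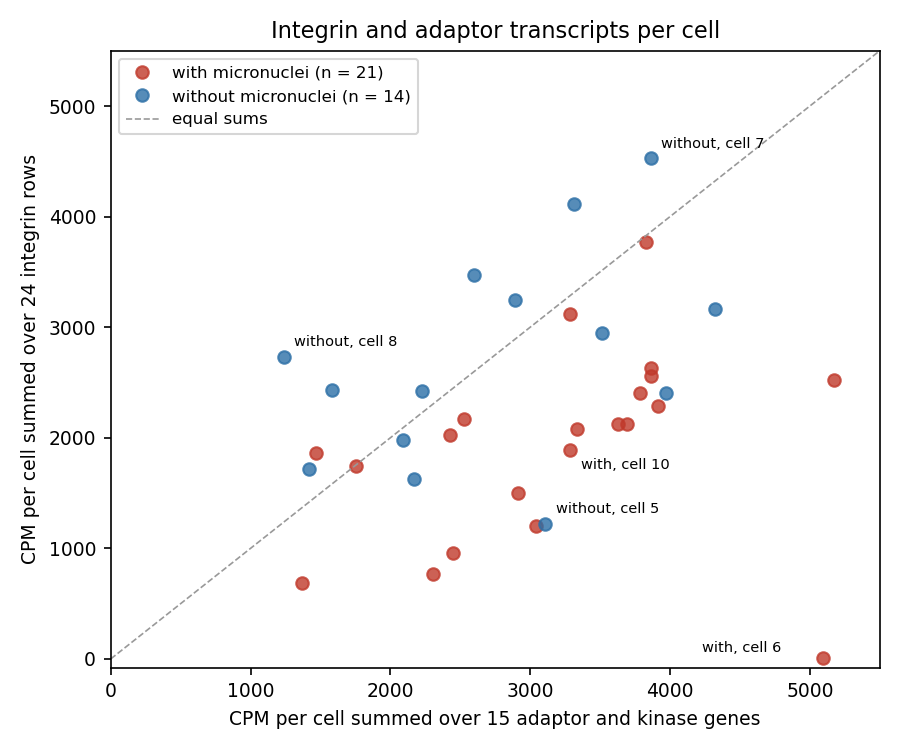
Each point is 1 cell, with CPM summed over the 15 adaptor and kinase genes on the horizontal axis and over the 24 integrin rows on the vertical axis (both linear); cells with micronuclei are red (n = 21), cells without are blue (n = 14), and the dashed line marks equal sums. The integrin sum exceeded the adaptor sum in 1 of 21 cells with micronuclei and 8 of 14 without, and micronucleated cell 6 lies at the lower right.

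Across the 35 cells the members varied together only loosely. For the 12 members with at least 5 reads in 25 or more cells, Spearman correlations of CPM over the cells ran from −0.33 to 0.51 in 66 pairs (median 0.17), with 56 above 0. Cells share a library's depth and quality across genes, and the correlation of these 12 with the number of genes detected ran from 0.005 to 0.38 (median 0.26), so a weak positive value is no finding. Within cells with micronuclei that correlation was higher for some, at 0.70 for Itgb1, 0.57 for Tgfb1i1 and 0.50 for Itgav, against 0.01 for Itgb1, −0.23 for Tgfb1i1 and −0.12 for Itgav within cells without. Over all 35 cells the highest pairs were Itga5 with Vcl (0.51), Itgav with Itgb1 (0.50), and Lims1 with Fermt2 (0.48). Within cells with micronuclei (n = 21) these were 0.42, 0.64 and 0.55, and within cells without (n = 14) they were 0.42, 0.28 and 0.44. The 0.64 of Itgav with Itgb1 thus stands in a group where both followed the number of genes detected, whose part in it was not tested. In that group Lims1 and Fermt2 fell with the share of mitochondrial reads (−0.66 and −0.51), against 0.44 and −0.29 within cells without. The part of that share in their 0.55 was not tested. Other pairs were farther from 0 within 1 group, such as Itga5 with Itgav (0.71 with micronuclei, 0.11 without) and Zyx with Tns1 (−0.69 with micronuclei, 0.12 without). The lowest pair over all 35 cells was Itgav with Parva.

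Other genes of adhesion were listed by role. Of 51 further adaptors and regulators, 49 were in the table and 40 were measured. Of these 40, 27 were higher and 13 lower with micronuclei, beside 56% higher and 44% lower of all genes. The median log2 ratio of the 40 was 0.37, and 0.11 with equal weights, beside 0.15 and 0.05 for all genes. At least 2-fold higher were 11 of these 40 and 3 were at least 2-fold lower, beside 22.9% and 14.7% of all genes, so the count of higher ones is near the share of all genes. Sharpin, an inhibitor that holds integrins in their inactive form, stood at 63.9 CPM with micronuclei and 0.861 CPM without, a log2 ratio of 5.12, and was seen at 5 reads in 13 of 21 cells with micronuclei and 1 of 14 without. Micronucleated cell 11 held 52.4% of its reads, and the log2 ratio was 4.21 without that cell. Ptk2b (PYK2), the relative of focal adhesion kinase, stood at 12.9 CPM with micronuclei and 2.58 CPM without, a log2 ratio of 1.96 opposite in sign to that of Ptk2, and of 3.36 once cell 3 of the others was omitted. Nedd9, the relative of p130Cas, had a log2 ratio of 3.02 (1.10 with equal weights), and 1.74 when micronucleated cell 11, the source of 57.2% of its reads, was omitted, or 3.89 when cell 12 of the others was. Git1, which binds paxillin, had a log2 ratio of 1.21, and of 2.76 once cell 6 of the others was omitted.

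Matrix ligands and partner receptors on the surface were counted likewise. Of 36 listed matrix ligands, 30 were measured, 15 higher and 15 lower with a median log2 ratio of −0.01 (−0.25 with equal weights), 8 at least 2-fold higher and 2 at least 2-fold lower. Over all genes 56% were higher, 44% lower, 22.9% at least 2-fold higher and 14.7% at least 2-fold lower, so the 8 of 30 stand near the share of all genes. Higher with micronuclei were the laminin chains Lama4 (11.7 CPM with micronuclei and 2.24 CPM without, log2 ratio 1.97) and Lamc1 (59.5 CPM with micronuclei and 21.8 CPM without, log2 ratio 1.41). So was thrombospondin-2, Thbs2 (205.8 CPM with micronuclei and 71.6 CPM without, log2 ratio 1.51). Npnt, nephronectin, was lower at 98.2 CPM with micronuclei and 272.3 CPM without, a log2 ratio of −1.46. Fibronectin, Fn1, the ligand of α5β1 and named here after its values were seen, ranged from 0 to 2019 CPM in cells with micronuclei (median 1139) and from 425.7 to 3345 CPM in cells without (median 1525). Of 15 listed partners 14 were measured, 7 higher and 7 lower, with a median of −0.04. Cd44, the hyaluronan receptor, was present in every cell and stood at 2021 CPM with micronuclei and 4397 CPM without, a log2 ratio of −1.12 that stayed between −1.28 and −0.90 over the omitted cells. Cd47 was lower as well (−0.56), while the syndecan Sdc2 (1.10, and 0.31 without micronucleated cell 13) and the membrane collagenase Mmp14 (0.49) were higher.

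Of 38 listed genes of signalling downstream of integrins, 35 were measured, 18 higher and 17 lower, with a median log2 ratio of 0.12 (0.07 with equal weights), near that of all genes, and 7 were at least 2-fold higher and 7 at least 2-fold lower (all genes 22.9% and 14.7%). Yes1, a kinase of the Src family, stood at 4.87 CPM with micronuclei and 28.8 CPM without, a log2 ratio of −2.35 opposite to that of Src, and with at least 5 reads in 4 of 21 cells with micronuclei and 7 of 14 without. Its log2 ratio was −1.59 when cell 6 of the others was omitted. Higher with micronuclei were the kinase gene Akt2 (23.7 CPM with micronuclei and 6.63 CPM without, log2 ratio 1.70) and the adaptor gene Shc1 (91.8 CPM with micronuclei and 28.9 CPM without, log2 ratio 1.63). So was Ptpn12, whose phosphatase acts on p130Cas (52.3 CPM with micronuclei and 21.9 CPM without, log2 ratio 1.22). Omitting that same cell 6 put the log2 ratio of Ptpn12 at 2.85, and omitting cell 13 of the others put that of Akt2 at 2.30. Among fibroblast markers 5 were higher and 5 lower of the 10 measured, with a median of 0.03. Pdgfra, a growth factor receptor, had a log2 ratio of 2.29 and at least 5 reads in 7 of 21 cells with micronuclei and 1 of 14 without. That log2 ratio was 1.65 once micronucleated cell 14 was omitted and 4.05 once cell 11 of the others was. The log2 ratio was 1.00 for Col3a1, 0.36 for S100a4 and −0.35 for Vim, the intermediate filament vimentin, and that of the keratin gene Krt19, an epithelial marker, was 0.59. These markers differed along with the adhesion genes, and their part in those differences was not tested.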

How the data were processed

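For 35 cells the authors deposited a raw count of reads for every gene, without normalization. The submitters' processing notes name STAR and the build GRCm38.p5, and the deposited phenotype table names Rsubread for counting and scater for filtering cells; versions and the strand setting were not found there. Spike-ins (62 of 19147 features) stayed out of all totals. No cell was removed, 0 cell pairs were identical, no batch is named in the labels, and 0 columns of other samples were present.

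Each cell is its own library, so a group is 1 sample and no test was run. Reads were summed per group and scaled to CPM; 1 was added to both CPM values before their log2 ratio was taken, with micronuclei over without. Intervals are 95% exact intervals for counting error only. The members, gene lists and markers were chosen with earlier results of these data known. Every measured member is named, and of each other list up to 4 measured genes with the largest smallest log2 ratio of 1 sign over summed reads, equal weights and every omitted cell. Thinning drew 100000 reads from 18 cells with micronuclei and 13 without; 3 and 1 were too shallow. Alternatives are given in the closing section. Ratios were tested on simulated data with known folds. Exons come from the GENCODE annotation of GRCm38. Size factors came from scran 1.30.0 and TMM factors from edgeR 4.0.16 in R 4.3.3; everything else ran in Python 3.11.15 with scipy 1.17.1, pandas 2.3.3, matplotlib 3.10.9 and numpy 2.4.6.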

Additional observations from a re-analysis of the deposited data

How the results depend on the processing

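For the ratios 11 scalings, weights or choices of cells were tried, and 16 of the 24 measured members kept their direction in all of them and in the omission of each cell. The exceptions were Itga9, Itgav, Itgb5, Parva, Lims1, Tns1, Bcar1 and Tgfb1i1, and the cause was not tested. The share of all measured genes that did so was not computed, so the count of 16 cannot be set against the typical gene. Some of the 16 came close to 0. The log2 ratio of Zyx was 0.003 without the 6 cells of low quality. That of Fermt2 was 0.05 after thinning, and that of Pxn was −0.009 without cell 6 of the group without micronuclei. Omitting 1 cell at a time left 12 to 15 of the 24 higher and 9 to 12 lower (median log2 ratio 0.03 to 0.26), 2 to 5 of the 9 integrins higher and 4 to 7 lower (median −0.79 to 0.11), and 9 to 10 of the adaptors and kinases higher and 5 to 6 lower (median 0.18 to 0.59). The integrin median above 0 came without cell 1 of the group without micronuclei. Over the same omissions the difference between group medians of the summed level was −651.2 to −348.9 CPM for integrins and 394.0 to 690.9 CPM for adaptors and kinases. With no filter, 14 of the 24 integrin rows were higher and 10 lower, since rare rows seen in a few micronucleated cells then enter. Without the 6 cells of low quality, a choice made after seeing the data as were the omissions of the 4 cells with macrophage markers and of micronucleated cells 6 and 10, 5 of the 9 integrins were higher. With scran scaling the integrin median was −0.85 and the adaptor median 0.08, and over 5 alternatives the summed level differed by −904.4 (scran) to −461.1 CPM for integrins and by 34.9 (scran) to 771.4 CPM for adaptors and kinases. No paired analysis was possible because the labels give the cells no replicate numbers that the groups share and no result comes from a test. Depth limits the 15 rare integrin rows, Src, Pxn, Itga7 and Itga9, which few cells show at 5 reads.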
